A study of Mus musculus with 6 samples.

Results

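The genes described here encode the subunits of the proteasome with its activators, its inhibitor and its assembly factors. They were chosen by name, as the protein-coding mouse genes of GENCODE M21 (GRCm38) whose symbols begin with Psma, Psmb, Psmc, Psmd, Psme, Psmf or Psmg and go on with a digit. This gave 50 genes of 21951 annotated protein-coding genes. Of the 50, 42 had a transcript in the count table and 40 had enough counts to be tested. The rule also took in Psmc3ip, whose product acts in meiotic recombination and is no proteasome subunit, and Psme2b, an intronless copy of Psme2.

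The proteasome degrades proteins marked with ubiquitin. Its 20S core is a barrel of alpha rings, which gate the entrance, around beta rings, which carry the peptidase sites. The 19S cap binds ubiquitin chains, removes them and feeds the unfolded protein into the core by means of a ring of ATPases. In cells exposed to interferon gamma, the catalytic beta subunits can be replaced by the immunoproteasome subunits Psmb8, Psmb9 and Psmb10, and the PA28 activator, made of Psme1 and Psme2, is also raised. Neurons depend on the proteasome for the turnover of axonal and synaptic proteins.

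The cochlear modiolus is the bony axis that houses the spiral ganglion neurons (SGNs), and its RNA was sequenced from C57BL/6 mice in 2 groups of 3 libraries, control and degenerated. According to the methods of the study, degeneration was induced in 8-week-old male mice with 1 g/kg kanamycin sulfate followed by 0.4 g/kg furosemide, which destroy the hair cells, and control mice received saline. The text of the study gives day 30 after the injections as the time of its transcriptome, and the labels give no day. No label says whether a library is a separate mouse or a pool, so that the p-values measure the spread between these libraries only. The comparison asks which transcripts differ in the modiolus once the SGNs degenerate.

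The listed transcripts held 12480876 to 15549319 counts per library. The table has 65535 transcripts, as many as an older spreadsheet format can hold below a header, and may be incomplete, so these totals and the values scaled to them refer to the listed transcripts. Neuronal markers were abundant. The 12 SGN genes of the marker list were all in the table, and together they reached 11566 to 14869 CPM, counts scaled to a common library size with TMM factors, in controls and 6743 to 10144 CPM in degenerated libraries. Of these 12 genes, Calb2 and Pvalb, which encode calcium-binding proteins, were called lower and Gap43, a growth cone gene, was called higher, at the threshold for calls given further on. The sum rests mostly on Snap25, Nefh, Nefm, Nefl and Calb2, and the marker genes did not move one way. The log2 fold change was negative in 8 of the 12 and positive in 4, with −0.04 for Tubb3, a tubulin of neurons in general, 0.29 for Gata3 and 3.07 for Scn1a, none of them called. For Scn1a the main coding transcript is not listed, and its 83.7 CPM in degenerated replicate 2 stood far above every other library. Prph, also not called, was positive as well, at 0 to 4.86 CPM across the libraries. The modiolus is a mixed tissue, and fewer cells of a type cannot be told apart here from less RNA per cell. Myelin genes of Schwann cells were abundant too, with sums of 5452 to 9658 CPM in controls and 4834 to 7641 CPM in degenerated libraries. Of 5 macrophage genes tested, C1qb and C1qc were called higher. Cx3cr1 (log2 fold change 1.85), Cd68 (−1.54) and Ptprc (−0.53) were not called. Aif1, a listed macrophage gene that was not tested, had 15.1, 0.0707 and 16.2 CPM in controls and 0.137, 0 and 0 CPM in degenerated libraries. Of 5 hair cell genes tested, Ocm and Slc26a5 were called lower. Otof (log2 fold change −0.56), Pou4f3 (−0.81) and Myo7a (0.15) were not called. Bglap, a gene of osteoblasts, was called lower among 3 bone genes tested. Sp7 (log2 fold change −1.16) and Acp5 (−3.16) were not called, but in all 3 genes every degenerated library was below every control. The 4 listed bone genes summed to 392 to 527 CPM in controls and 90.1 to 182 CPM in degenerated libraries. Control replicate 3 stood apart by its skeletal muscle markers, which summed to 393 CPM over 8 genes, against 1.27 to 7.15 CPM in the other libraries. Control replicate 1 stood apart by its markers of B cells and bone marrow, which summed to 75.0 CPM over 6 genes, against 410 to 8056 CPM elsewhere.

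The table lists 124 of the 278 annotated transcripts of the proteasome genes, or 44.6%, close to the 46.0% of all annotated transcripts that it lists. What was measured therefore differs between members, and they are kept apart by their principal transcripts, the main coding isoforms in the APPRIS annotation. For 27 members every principal transcript is listed. For Psmd8, Psmd11 and Psmf1 a part of them is listed. For 12 members (Psma3, Psma7, Psmb9, Psmb10, Psmc3, Psmc3ip, Psmc4, Psmc5, Psmd2, Psmd5, Psme2 and Psme3) only other transcripts are listed, such as those with retained introns. Psma2, Psma5, Psmb2, Psmb5, Psmb8, Psmb11, Psmg1 and Psmg3 have no listed transcript and were not analysed here.

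Promoter sequence is shown for 5 subunit genes, the 20S beta gene Psmb3, the 19S ATPase genes Psmc2 and Psmc6 and the 19S non-ATPase genes Psmd2 and Psmd4, to show examples of the ETS and CCAAT motifs counted over all members. They were picked after the motifs had been searched. Each sequence is 130 bases of RefSeq promoter in the build GRCm38.p6, on the strand of the gene, and ends before the start of the gene in both RefSeq and GENCODE. Capitals mark matches on either strand to CCGGAAG, the core of sites bound by ETS factors, and to CCAAT, the box bound by NF-Y. The core of the antioxidant response element, TGACNNNGC, was searched too and has no match in these 5 windows.
Psmb3: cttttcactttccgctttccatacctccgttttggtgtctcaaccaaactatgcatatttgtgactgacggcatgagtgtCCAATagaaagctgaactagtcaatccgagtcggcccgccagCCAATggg
Psmc2: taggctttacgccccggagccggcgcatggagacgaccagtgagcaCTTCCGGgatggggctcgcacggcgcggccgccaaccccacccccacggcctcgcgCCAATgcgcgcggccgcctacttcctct
Psmc6: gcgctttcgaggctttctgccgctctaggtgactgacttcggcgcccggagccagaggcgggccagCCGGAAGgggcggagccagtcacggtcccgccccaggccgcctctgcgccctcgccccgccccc
Psmd2: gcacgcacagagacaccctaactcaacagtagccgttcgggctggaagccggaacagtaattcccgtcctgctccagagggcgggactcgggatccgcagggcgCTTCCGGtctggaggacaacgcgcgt
Psmd4: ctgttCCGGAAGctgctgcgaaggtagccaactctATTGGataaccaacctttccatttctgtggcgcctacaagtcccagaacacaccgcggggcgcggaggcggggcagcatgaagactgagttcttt

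The windows lie at chr11:97703269-97703398 (Psmb3), chr5:21785145-21785274 (Psmc2), chr14:45329658-45329787 (Psmc6), chr16:20651522-20651651 (Psmd2) and chr3:95042615-95042744 (Psmd4, minus strand). The ETS core stood in the windows of Psmc2, Psmc6, Psmd2 and Psmd4, and the window of Psmb3 held 2 CCAAT boxes. RefSeq promoters of 300 bases, 250 before and 50 after the start, were matched for 42 of the 50 genes, with 45 promoters in all. The ETS core was found in 16 of these 45 promoters (35.6%), against 8.86% of 32851 mouse promoters. CCAAT was found in 15 of 45 (33.3%) against 37.4%, and the antioxidant response element core in 6 of 45 (13.3%) against 12.4%. The GAS motif, TTCNNNGAA, was also searched, though not marked in the windows, and was found in 3 of 45 (6.67%) against 8.30%. These are matches of letters only, and none was tested against the libraries.

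Proteasome subunit genes were expressed in both groups, and none of the 40 tested members passed the threshold for a call in the comparison of genes. Calls required a log2 fold change beyond 0.2 in either direction and an unadjusted p under 0.01 (edgeR quasi-likelihood test). By this rule 2.01% of 14118 genes were called higher and 0.715% lower, and 0 members were called in either direction. At an adjusted p under 0.05, 0% of all genes and 0 members were called. At an unadjusted p under 0.05 there were 1367 genes and 2 members, Psmd3 and Psme4. The smallest adjusted p of any member was 0.421 (edgeR), for Psmd3. DESeq2 called 263 genes higher and 119 lower at an adjusted p under 0.05, and the edgeR exact test 85 and 30.

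Most members lay slightly lower in the degenerated libraries. The log2 fold change was negative in 32 of the 40 tested members, against 50.3% of all genes tested, and its median was −0.17 against −0.003. Among the 27 members with every principal transcript listed, 23 were negative, with a median of −0.17, which is a level 10.8% lower. In 8 of the 40 members all degenerated libraries were below all controls, against 7.37% of all genes, and in 3 they were above, against 10.3%. In the other 29 members the groups overlapped. Values are on the CPM scale unless stated, and the smallest p that an exact permutation of 3 against 3 libraries allows is 0.1.

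**Figure D1:**
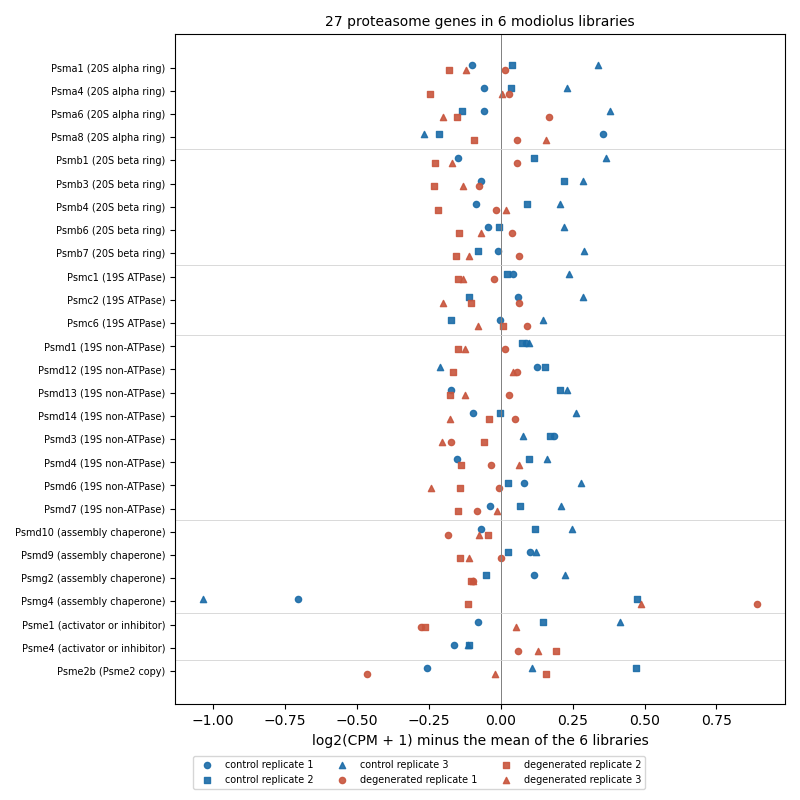
Level of the 27 proteasome genes with every principal transcript listed in each of the 6 libraries, as log2(CPM + 1) minus the gene's mean over the libraries (x axis), with genes by role on the y axis. Control replicate 3 lies farthest to the right for most genes, degenerated replicates 2 and 3 lie mostly to the left, and control replicate 1 and degenerated replicate 1 lie between them.

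The shift was unequal among libraries. For the 19 subunits of the 20S and 19S particles with every principal transcript listed and a control mean of at least 10 CPM, the summed level was 3792, 3935 and 4491 CPM in control replicates 1 to 3. In the degenerated replicates it was 3881, 3461 and 3567 CPM. Degenerated replicate 1 thus lay above control replicate 1, and the groups overlapped. In control replicate 3, the library with muscle markers, 18 of the 19 subunits were above their mean over all libraries, against 1 of 19 in degenerated replicate 2. Without control replicate 3, the median of the 27 members moved from −0.17 to −0.11, with 23 of the 27 still negative. Markers of B cells and bone marrow also differed, with sums of 75.0, 8056 and 4431 CPM in control replicates 1 to 3. In degenerated replicates 1 to 3 they summed to 410, 1050 and 2882 CPM. The part of the muscle and marrow markers in this shift was not tested.

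The size of the shift depends on the scale, and it is best read against the other genes. On the scale of TPM, which divides counts by transcript length before scaling, the median log2 ratio of degenerated to control means over all genes tested was 0.11, a shift of 0.12 from the CPM scale. The 19 subunits had a median of −0.05 in TPM and −0.16 in CPM. Of these, 16 were negative in TPM and 18 in CPM, against 39.3% of all genes negative in TPM.

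**Figure D2:**
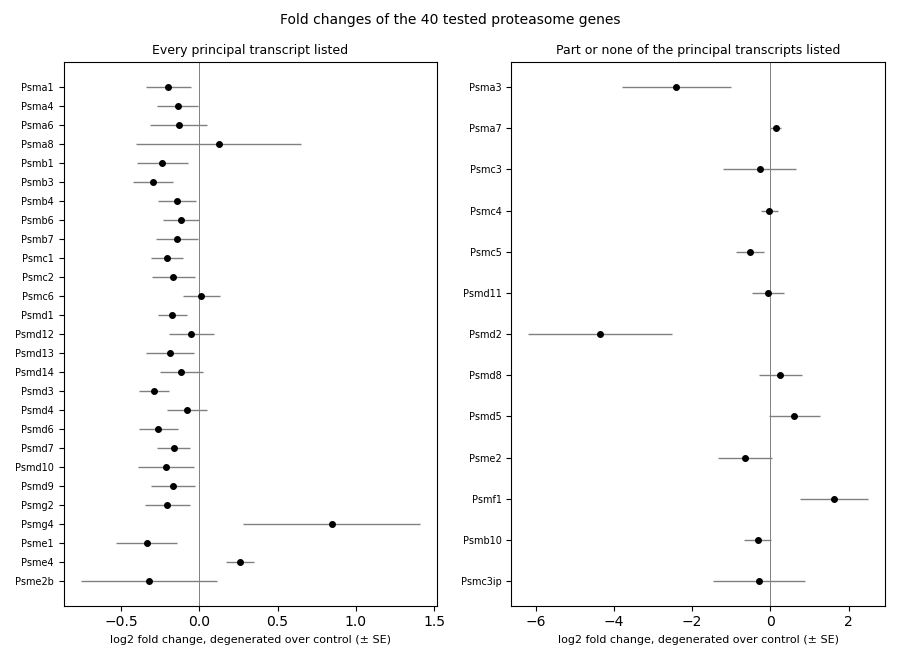
Log2 fold change of the 40 tested proteasome genes, degenerated over control, with the standard error of the edgeR fit (x axis, note the different ranges of the panels), for genes with every principal transcript listed (left) and for the others (right). On the left 23 of 27 points lie below 0, and on the right Psmd2, Psma3 and Psmf1 lie farthest from 0 with wide errors.

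The 20S alpha ring, whose N-termini close the entry pore, was represented by Psma1, Psma4 and Psma6. Their log2 fold changes were −0.20, −0.14 and −0.13, with standard errors (SE) of 0.13 to 0.18, and the groups overlapped in each. Psma6 had 195, 185 and 264 CPM in controls and 228, 182 and 177 CPM in degenerated libraries. Without control replicate 3 its log2 fold change was 0.03. Psma8, the alpha subunit of germ cells, was near the limit of detection, with 0.510 to 1.32 CPM in all libraries. Psma7 had the largest increase of the ring (log2 fold change 0.13, SE 0.15), with 34.1, 34.2 and 32.6 CPM in controls and 36.4, 38.9 and 35.2 CPM in degenerated libraries. The groups did not overlap, but only transcripts other than the principal one were listed for it. With protein-coding transcripts alone, which left Psma7-203, the log2 fold change was −0.32. Psma7-203 had 38, 54 and 36 counts in controls and 55, 31 and 13 counts in degenerated libraries, with overlap. Psma3 had the largest decrease, again on minor transcripts, with 1.85, 2.26 and 3.13 CPM in controls against 0, 1.34 and 0 CPM. Its log2 fold change of −2.40 had an SE of 1.39, and it was called lower without degenerated replicate 2, which left 2 degenerated libraries at 0.

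In the constitutive 20S beta ring all 5 measured genes had a negative log2 fold change, from −0.12 to −0.30, and none was called. Psmb3, a structural beta subunit without peptidase activity (chr11:97703399-97713500), had 156, 190 and 200 CPM in controls and 155, 139 and 149 CPM in degenerated libraries. All degenerated values were below all control values, although control replicate 1 and degenerated replicate 1 were almost equal. The log2 fold change was −0.30 with an SE of 0.13 (adjusted p = 0.541, edgeR). Psmb6, the caspase-like peptidase, had 211, 217 and 254 CPM in controls and 224, 197 and 208 CPM in degenerated libraries. Psmb7, the trypsin-like peptidase, had 240, 228 and 294 CPM against 251, 216 and 223 CPM. Both overlapped between groups, with log2 fold changes of −0.12 (SE 0.12) and −0.14 (SE 0.13). Psmb1 and Psmb4 also overlapped, at −0.24 and −0.14. The chymotrypsin-like subunit Psmb5 was not analysed here.

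Of the immunoproteasome, little could be measured. Psmb9 was represented by a single transcript with a retained intron, at 0.662, 1.49 and 0.574 CPM in controls and 0.684, 0.423 and 2.21 CPM in degenerated libraries, too low to be tested. Psmb10 was represented by 3 retained-intron transcripts, with 7.55, 7.50 and 14.5 CPM in controls and 7.59, 8.03 and 7.97 CPM in degenerated libraries. Apart from control replicate 3, its values lay between 7.50 and 8.03 CPM, and the log2 fold change of −0.32 (SE 0.35) became 0.06 without that library. Transcripts with retained introns do not give the level of the spliced messenger RNA. No ratio of immunoproteasome to constitutive catalytic subunits was therefore formed.

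The PA28 activator, a ring that opens the 20S gate without ubiquitin or ATP, was measured through Psme1. Its values were 44.8, 52.5 and 63.5 CPM in controls and 38.9, 39.3 and 49.2 CPM in degenerated libraries. Degenerated replicate 3 lay above control replicate 1, so the groups overlapped, with a log2 fold change of −0.34 (SE 0.19, adjusted p = 0.639, edgeR). Its partner Psme2 had 27.2, 7.64 and 36.1 CPM in controls and 24.0, 6.69 and 14.2 CPM in degenerated libraries, without its principal transcript, and a log2 fold change of −0.66 (SE 0.69). The copy Psme2b, which may share reads with Psme2, had at most 3.40 CPM.

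Psme4 had the smallest p among the members with a positive log2 fold change. It encodes PA200, a nuclear activator tied to the degradation of acetylated histones, and lies at chr11:30771726-30880361. Controls had 202, 210 and 209 CPM and degenerated libraries 236, 259 and 248 CPM. All degenerated libraries were above all controls, with a log2 fold change of 0.26 (SE 0.09) and an unadjusted p of 0.0276 (edgeR). The adjusted p was 0.451 (edgeR), so the difference did not hold across all genes. In TPM the log2 ratio was 0.36. The principal transcript Psme4-201 held 99.0 to 99.4% of the gene's listed counts in each library. Its 234 to 253 CPM in degenerated libraries against 207 to 212 CPM in controls is therefore not a separate result. Psme3, the nuclear PA28 gamma subunit, had no listed principal transcript and was not tested, at 0.137 to 1.34 CPM.

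Among the 19S ATPases, which form the ring that unfolds substrates, Psmc1 had 272, 268 and 312 CPM in controls and 260, 238 and 241 CPM in degenerated libraries. The degenerated values were all below the controls, with a log2 fold change of −0.21 (SE 0.10, adjusted p = 0.590, edgeR). Psmc2 and Psmc6 overlapped between groups. Psmc6 was the flattest subunit, with 258, 229 and 286 CPM against 276, 260 and 245 CPM and a log2 fold change of 0.01 (SE 0.12). Psmc5 had the largest decrease of the ring, −0.51 (SE 0.36), from a single transcript that is not the principal one, with 10.2, 14.1 and 13.9 CPM against 12.5, 8.45 and 5.76 CPM. Psmc4 had 39.5 to 59.3 CPM and a log2 fold change of −0.02 (SE 0.22), also without its principal transcript.

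All 8 of the 19S non-ATPase subunits with every principal transcript listed had a negative log2 fold change, from −0.05 for Psmd12 to −0.29 for Psmd3. Psmd3, a scaffold of the 19S lid (chr11:98682554-98695979), had 244, 242 and 227 CPM in controls and 190, 206 and 186 CPM in degenerated libraries. The groups did not overlap, and the log2 fold change of −0.29 had an SE of 0.09 (unadjusted p of 0.0213, adjusted p = 0.421, edgeR). In the test of transcripts, the principal transcript Psmd3-201 had a log2 fold change of −0.43 (SE 0.10) and an unadjusted p of 0.00611 (adjusted p = 0.525, edgeR), a call at the same thresholds, where 0.652% of 26065 transcripts were called lower. It had 3340, 2970 and 3142 counts in controls and 2288, 2440 and 1977 counts in degenerated libraries. With only protein-coding or only principal transcripts kept, Psmd3 was called lower as a gene, at −0.40 and −0.36. In both cases Psmd3-201 was the only transcript left, so these calls rest on the same counts. The retained-intron transcript Psmd3-204 had 162, 154 and 123 counts in controls and 205, 262 and 164 counts in degenerated libraries. Psmd3-205, which also retains an intron, had 187, 298 and 286 counts against 290, 223 and 218 counts. The exons of Psmd3 overlap those of Gm12356, and without strand information in the counts such reads cannot be told apart. The same holds for exons that Psmb7 shares with Nek6, Psme1 with Emc9, Psmd13 with Sirt3 and Psmd9 with Gm26745, among others.

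Psmd6, another lid subunit, had 150, 145 and 173 CPM in controls and 142, 129 and 120 CPM in degenerated libraries. Psmd1, the large scaffold of the 19S base, had 293, 290 and 295 CPM against 278, 248 and 252 CPM. In both, all degenerated values were below the controls, with log2 fold changes of −0.26 (SE 0.12) and −0.17 (SE 0.09). Psmd7, Psmd13 and Psmd14, the last being the deubiquitinase of the lid, overlapped between groups at −0.16, −0.19 and −0.12. The ubiquitin receptor Psmd4 differed little, with 120, 143 and 150 CPM against 131, 121 and 140 CPM.

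**Figure D3:**
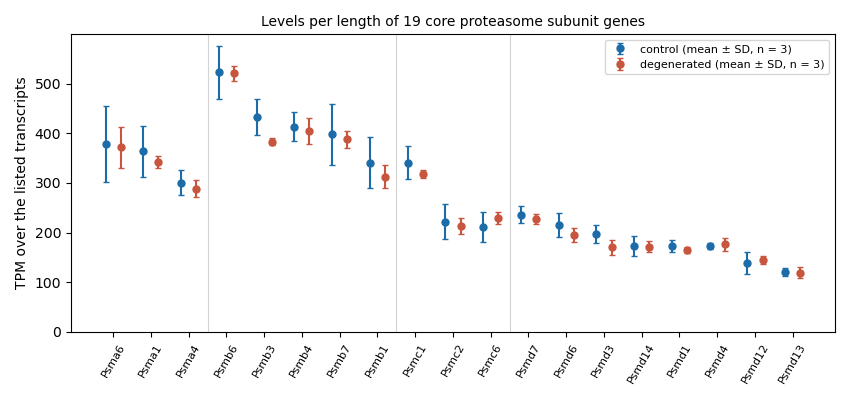
Level per length of 19 core subunit genes in TPM over the listed transcripts (y axis), as mean ± SD of 3 control and 3 degenerated libraries, with genes ordered by level within each role. Beta subunits lie at 341 to 523 TPM and non-ATPase subunits at 121 to 236 TPM in controls.

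The messenger RNAs of the 19 core subunits lay within 4.33-fold of each other per length. In TPM, which allows levels to be compared between genes, the highest control mean was that of Psmb6, 523 ± 53.0 (SD, n = 3), and the lowest that of Psmd13, 121 ± 8.54 (SD, n = 3). Controls had 300 to 378 TPM for the alpha ring, 341 to 523 TPM for the beta ring, 211 to 341 TPM for the ATPases and 121 to 236 TPM for the non-ATPase subunits. The non-ATPase range did not overlap with that of either ring of the 20S core. The median over all 19 was 236 TPM in controls and 229 TPM in degenerated libraries. In the order of the 19 control means, 14 of the 18 pairs of neighbours differed by less than the larger SD of the pair. The steps beyond it were those from Psmb6 to Psmb3, from Psma4 to Psmd7, from Psmd3 to Psmd14 and from Psmd4 to Psmd12. TPM covers the listed transcripts only.

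Assembly chaperones, which build the rings and the base and then leave, were lower in level. Psmg2, which pairs with Psmg1 in alpha ring assembly, had 48.7, 43.3 and 52.6 CPM in controls and 41.9, 41.7 and 41.9 CPM in degenerated libraries. Psmd9, a chaperone of the ATPase ring, had 45.1, 42.7 and 45.7 CPM against 42.0, 37.9 and 38.8 CPM. All degenerated values of both were below the controls, with log2 fold changes of −0.20 (SE 0.15) and −0.17 (SE 0.14). Psmd10, also known as gankyrin, had the largest decrease of the group at −0.21 (SE 0.18), with 27.9, 31.9 and 35.0 CPM against 25.7, 28.4 and 27.7 CPM, and overlapped. Psmg4 had the largest increase at 0.84 (SE 0.57), with 4.10, 10.5 and 3.06 CPM against 14.4, 6.69 and 10.7 CPM, again with overlap. Psmd5 ranged from 1.91 to 9.79 CPM without its principal transcript.

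The largest fold changes in the module, of Psmd2, Psma3 and Psmf1, came mainly from minor transcripts counted in some libraries and not in others. Psmd2, the second scaffold of the 19S base, had a log2 fold change of −4.35 (SE 1.84), but 197 CPM in control replicate 2 and 2.05 to 4.24 CPM in all other libraries. In control replicate 2, Psmd2-206, a transcript marked for nonsense-mediated decay, held 2746 counts. Without that library the log2 fold change of Psmd2 was 0.27. Psmf1, which encodes the inhibitor PI31, had 33.8, 4.74 and 4.34 CPM in controls and 58.8, 38.7 and 35.1 CPM in degenerated libraries, a log2 fold change of 1.63 (SE 0.87). The degenerated libraries were above all controls, by a narrow margin over control replicate 1. Its transcript Psmf1-206, also marked for nonsense-mediated decay, had 422, 0 and 0 counts in controls and 743, 453 and 415 counts in degenerated libraries. Without control replicate 1, Psmf1 was called higher (log2 fold change 3.27, unadjusted p of 0.00018, edgeR).

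Psmd8 and Psmc3 varied widely within groups. Psmd8, a lid subunit with the largest increase among the non-ATPase genes (log2 fold change 0.26, SE 0.56), had 80.4, 52.2 and 115 CPM in controls and 132, 129 and 34.2 CPM in degenerated libraries. Psmc3 had 77.1, 11.8 and 22.8 CPM against 15.0, 65.3 and 11.9 CPM, and its short transcript Psmc3-210 had 1106 counts in control replicate 1 and 856 in degenerated replicate 2, against 119 to 233 in the others. Psmd8-203, the only listed one of the principal transcripts of Psmd8, was counted in every library, with 186 to 1782 counts. High and low libraries stood in both groups for each of these genes. Psmd11 had 8.91 to 20.1 CPM, and the meiotic gene Psmc3ip 0.0684 to 6.47 CPM.

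**Figure D4:**
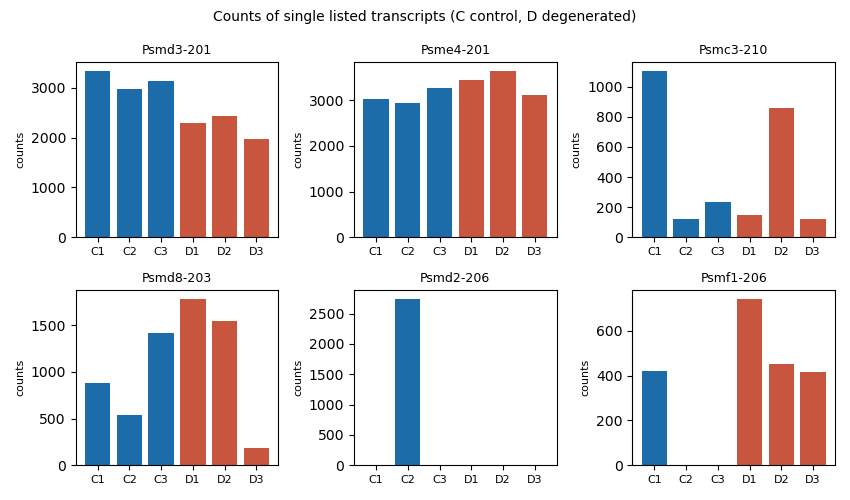
Counts (y axis) of 6 single listed transcripts in control (C) and degenerated (D) replicates 1 to 3 (x axis), with a separate range for each panel. Psmd3-201 and Psme4-201 have similar counts within a group, whereas Psmd2-206 has 2746 counts in control replicate 2 and few or none elsewhere, and Psmf1-206 has 0 counts in control replicates 2 and 3.

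In the test of single transcripts, 93 listed transcripts of the members were tested and 61 had a negative log2 fold change. The median over all 26065 transcripts tested was 0.007, with 12889 negative. The 30 principal transcripts of the members had a median of −0.20, with 24 negative. Their 33 retained-intron transcripts had a median of 0.08, with 13 negative. The difference between these kinds was not tested. The same split was not made over all genes, so it cannot be called particular to the members. Besides Psmd3-201, only Psmb3-202 was called among the 93 transcripts, where 1.14% of all transcripts were called higher. Psmb3-202 retains an intron and had 15, 14 and 18 counts in controls and 49, 30 and 49 counts in degenerated libraries, a log2 fold change of 1.53 (SE 0.38, adjusted p = 0.527, edgeR). It moved against the gene as a whole, whose log2 fold change was negative.

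Of 31 further genes of the ubiquitin and proteasome pathway, 25 were listed and 22 tested. None was called in either direction, with a median log2 fold change of −0.05 and 13 negative. Nfe2l1, the transcription factor that raises proteasome genes when proteasome activity falls short, had 18.5, 11.5 and 10.3 CPM in controls and 22.6, 30.8 and 42.8 CPM in degenerated libraries. The degenerated libraries were all above the controls, with a log2 fold change of 1.25 (SE 0.35) and an adjusted p of 0.381 (edgeR). Only 3 of its 12 transcripts were listed. Nfe2l2, the factor of the antioxidant response, had 8.80, 9.83 and 5.36 CPM against 15.0, 6.62 and 8.60 CPM, with overlap.

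The partners of the particle differed little. Pomp, the maturation factor of the 20S core, had 167, 174 and 194 CPM in controls and 175, 162 and 177 CPM in degenerated libraries. Adrm1, a ubiquitin receptor of the 19S cap, had 95.1, 117 and 97.8 CPM against 101, 92.3 and 93.6 CPM. Sem1, the smallest 19S subunit, had 119, 131 and 167 CPM against 112, 117 and 143 CPM. Their log2 fold changes were −0.06, −0.11 and −0.16, with SE of 0.10 to 0.17. The deubiquitinase Usp14 had 2.21 to 4.72 CPM without its principal transcript, and Uchl5 had at most 0.274 CPM and was not tested.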

How the data were processed

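Modiolus RNA of 3 control and 3 degenerated libraries was analysed from the table of counts per Ensembl transcript that the authors deposited, which is not normalized. The methods name Hisat2 and StringTie, whereas the submitters' processing notes name Bowtie 0.12.2 and the builds mm8 and mm10. All columns were matched to labels (0 unmatched). Of 65535 transcripts, 65272 matched GENCODE M21, and their counts were summed per gene. The others held 0.125% of counts. The kit does not mark strand.

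Genes passing filterByExpr were fitted with TMM factors (0.983 to 1.02) and the robust quasi-likelihood test of edgeR 4.0.16 in R 4.3.3, degenerated against control, with Benjamini-Hochberg adjustment over all 14118 genes. Transcripts were fitted separately. The test was checked on simulated data. DESeq2 1.42.0, limma 3.58.1, other scalings and filters, and leaving out each library were alternatives. Members and gene lists were chosen with earlier results of these data known. Every member is accounted for, with values per library for catalytic, immunoproteasome and PA28 subunits, called members, the largest increase and decrease of each role and regulators such as Nfe2l1. Psmb3, Psmc1, Psmd1, Psmd6, Psmd9, Psmg2, Psme4 and the genes with single variable transcripts were added after their values were seen.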

Additional observations from a re-analysis of the deposited data

How the results depend on the processing

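The table lists part of the transcripts, each group had 3 libraries, and neither cell composition nor muscle and marrow in single libraries could be set apart. The median log2 fold change of the tested members stayed negative under every alternative, from −0.20 to −0.11. Of all genes, 284 were called higher and 101 lower, against 479 and 306 with DESeq2, 82 and 53 among genes with every transcript listed, and 181 and 61 with principal transcripts only, an alternative chosen after seeing the data. With protein-coding transcripts only, 184 were called higher. With the replicate block the counts were 160 and 58 and no member was called, but same-numbered libraries deviated together with correlations of 0.143, −0.086 and 0.066, so the numbers were not taken to pair them. The members called lower were 1 with protein-coding and 1 with principal transcripts (Psmd3 in both). Leaving out each library gave 144 to 339 genes higher and 76 to 158 lower, and 0 to 1 members in each direction (Psmf1 without control replicate 1, Psma3 without degenerated replicate 2). A fitted fold change of Psma3 without that library depends on the prior count.

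No member whose sign reversed was called. Psmc6 was −0.00082 with DESeq2, −0.00080 with RLE, −0.00042 with upper-quartile scaling, −0.0039 without a filter and −0.00097 with protein-coding transcripts. Psmd11 was 0.033 with limma-voom, 0.031 with the replicate block and 0.70 with principal transcripts only. Psma7 was −0.32 with protein-coding transcripts. Leaving out each library gave ranges that crossed 0 for Psma6 (−0.27 to 0.035), Psma8 (−0.12 to 0.68), Psmb10 (−0.49 to 0.055), Psmc3 (−1.47 to 0.82), Psmc3ip (−1.97 to 0.28), Psmc4 (−0.17 to 0.13), Psmc6 (−0.069 to 0.085), Psmd2 (−4.94 to 0.27), Psmd5 (−0.075 to 1.15), Psmd8 (−0.028 to 0.66), Psmd11 (−0.27 to 0.42) and Psmd12 (−0.17 to 0.012). The cause of these reversals was not tested.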
